A study of Homo sapiens with 2 samples.

Results

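The 10 genes described here encode hormones and growth factors that liver cells release, several of them known to be released under stress: GDF15, FGF21, FGF19, the stanniocalcins STC1 and STC2, the calcitonin family peptide ADM2, and the activin beta chains INHBA, INHBB, INHBC and INHBE. They were found by their gene symbols and are 10 of 25343 entries. The set was chosen by function and selected on TPM of these same libraries in LG and HG, which were already known, so the differences between media are a description and are not tested. RNA came from Huh7, an established line from a human hepatocellular carcinoma. The cells spent 6 days in low glucose medium (LG, 0.45 g/L) or in high glucose medium (HG, 4.5 g/L), after routine culture in DMEM with 10% fetal bovine serum. Dead cells were not carried over at passage, which limits the cells studied to those that lived through it. Each medium gave 1 library, so no value has a replicate error and no p-value is given.

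GDF15 is a distant member of the transforming growth factor beta (TGF-beta) family that acts on the hindbrain through the receptor GFRAL and its partner RET. FGF21 and FGF19 are endocrine fibroblast growth factors. Both need the co-receptor beta-Klotho (KLB), and FGF19 signals in liver mainly through FGFR4, where it restrains bile acid synthesis. Activins are dimers of beta chains that bind type II receptors (ACVR2A, ACVR2B) and then type I receptors, and follistatin (FST) traps them. INHBC and INHBE are the beta chains most restricted to liver. Transcription of GDF15, FGF21, STC2, ADM2 and INHBE is known to respond to the integrated stress response, in which cells short of amino acids or burdened with unfolded protein translate the transcription factor ATF4.

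The values are TPM, a length-scaled transcript share. They correct for transcript length and sum to 1000000 in each library, so levels can be set side by side between genes. The read depth behind them is unknown. Genes with a mean of at least 1 TPM over both libraries were compared (13745 genes, 8 of the 10 members) by the difference of log2(TPM + 1), LG minus HG. The 2-fold rule used throughout asks for 1 or more on this scale (higher in LG) or for -1 or less (lower in LG). Over all genes compared the median difference was 0.05, with 25th and 75th percentiles of -0.23 and 0.35. Hepatocyte markers were abundant in both libraries, with ALB (albumin) at 7997 TPM in LG and 8528 TPM in HG and AFP (alpha-fetoprotein) at 16441 TPM in LG and 20859 TPM in HG. None of 10 hepatocyte markers met the rule, but 9 were lower in LG and 1 was higher (median difference -0.33). TTR (transthyretin) came closest to the rule, at 682 TPM in LG and 1351 TPM in HG, a difference of -0.99. Of 10 markers of other liver cells, the leukocyte gene PTPRC stood at 0.50 TPM in LG and 0.83 TPM in HG, and the endothelial gene VWF at 0.05 TPM in both. By the mean of both libraries the most abundant of them were KRT19 (37.4 TPM in LG, 39.1 TPM in HG) and CD68 (39.3 TPM in LG, 20.4 TPM in HG). Only COL1A1 of this list met the rule, at 4.03 TPM in LG and 1.06 TPM in HG. The summed TPM of these markers was 91.7 in LG and 71.8 in HG, and their part in the differences below was not tested.

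Together the 10 genes held 1016 TPM in LG and 114.9 TPM in HG. Of the 8 members compared, 5 were at least 2-fold higher in LG (GDF15, STC2, ADM2, INHBA and INHBE), where 3.65% of all genes compared met that rule. Of the 8, 0 were at least 2-fold lower, against 1.10% of all genes. Since the members were picked with this contrast in view, nothing is read from these counts. The same shares, 3.65% higher and 1.10% lower, are the background for the counts of every gene list below. GDF15, INHBE and STC2 accounted for most of the sum: 46.2%, 26.7% and 16.9% of it in LG, and 34.4%, 16.8% and 13.3% in HG. FGF19 held 5.01% of the sum in LG and 23.6% in HG. The members just inside and just outside the rule were INHBA, with a difference of 1.55, and FGF19, with 0.89.

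**Figure D1:**
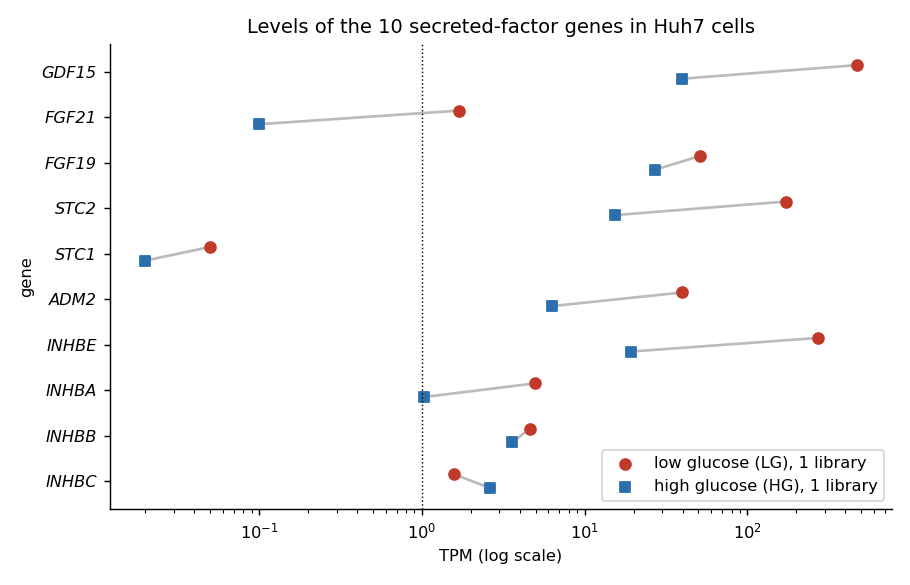
TPM of each of the 10 genes on a log axis, with a red circle for the low glucose library and a blue square for the high glucose library (1 library each); the dotted line marks 1 TPM. GDF15, STC2, ADM2 and INHBE have the wide gaps among the abundant genes, INHBC alone lies lower in low glucose, and STC1 lies near 0 in both.

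GDF15 (chromosome 19, 18496968 to 18499986 in hg19) stood at 469.9 TPM in LG and 39.6 TPM in HG, a ratio of 11.9. It was the most abundant of the 10 genes in both media. Its difference of 3.54 ranked 5th among the 13745 genes compared. By level, 1.07% of all entries stood above it in LG and 17.4% in HG. Its receptor was at or near 0 in the same cells: GFRAL was listed at 0 TPM in LG and 0.09 TPM in HG, and RET at 0 TPM in both. Of 6 genes for GFRAL, RET and the related GFRA receptors, only GFRA1 reached the level compared (2.79 TPM in LG, 2.54 TPM in HG), and GFRA3 was the next most abundant (0.27 TPM in LG, 0.13 TPM in HG). The genes nearest to GDF15 in level and difference together were TRIB3 (335 TPM in LG, 48.5 TPM in HG) and PPP1R15A (295 TPM in LG, 53.6 TPM in HG). TRIB3 encodes a pseudokinase, and PPP1R15A (GADD34) a phosphatase subunit that reverses the stress signal upstream of ATF4. Likeness here is the distance in the plane of both log2(TPM + 1) values, 0.57 for TRIB3 and 0.79 for PPP1R15A, and it rests on 2 libraries only.

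STC2 (chromosome 5, 172741726 to 172756506) encodes a secreted glycoprotein that blocks the pappalysin proteases, which release insulin-like growth factors from their binding proteins. It stood at 171.8 TPM in LG and 15.3 TPM in HG, a ratio of 11.2, and its difference of 3.41 ranked 7th. Its paralogue STC1 stood at 0.05 TPM in LG and 0.02 TPM in HG, below the level compared, and no ratio is given at such low values. The proteases that STC2 blocks were scarce, with PAPPA at 0.67 TPM in LG and 0.38 TPM in HG and PAPPA2 at 0.71 TPM in LG and 0.42 TPM in HG. Their substrate IGFBP4 was level (18.0 TPM in LG, 17.5 TPM in HG), as was the growth factor IGF2 (1922 TPM in LG, 1801 TPM in HG). Of 7 genes on the list of stanniocalcin and insulin-like growth factor partners, 3 reached the level compared and 0 met the rule, with a median difference of 0.09. The nearest gene in level and difference was SLC7A11, the cystine importer (118 TPM in LG, 13.4 TPM in HG, distance 0.57), followed by INHBE (distance 0.73).

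ADM2 (chromosome 22, 50919985 to 50924866), also called intermedin, encodes a vasodilator peptide. It stood at 39.8 TPM in LG and 6.31 TPM in HG, a ratio of 6.31, and its difference of 2.48 ranked 34th. The related ADM (adrenomedullin) stood at 64.9 TPM in LG and 33.5 TPM in HG, a difference of 0.93. ADM2 therefore held 35.0% of the summed TPM of 5 calcitonin family peptide genes in LG and 13.4% in HG. The receptor for these peptides pairs CALCRL with a RAMP protein. CALCRL stood at 0.35 TPM in LG and 0.17 TPM in HG, below the level compared. RAMP1 stood at 7.91 TPM in LG and 11.6 TPM in HG, RAMP2 at 20.0 TPM in LG and 19.3 TPM in HG, and RAMP3 was listed at 0 TPM in both. None of the 5 other genes of this family and its receptors that reached the level compared met the rule (median difference 0.08, and 0.49 among genes with a mean of at least 10 TPM). EDN1, the precursor of the vasoconstrictor endothelin, was nearest to ADM2 in level and difference (40.5 TPM in LG, 7.18 TPM in HG, distance 0.16), followed by the gene of the transcription factor ISL2 (34.0 TPM in LG, 6.96 TPM in HG, distance 0.25).

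FGF21 (chromosome 19, 49259344 to 49261582), a hormone that liver releases in fasting and protein shortage, stood at 1.70 TPM in LG and 0.10 TPM in HG. Its mean of 0.90 TPM was below the level compared. Its difference would be 1.30 on the log2(TPM + 1) scale, and how few reads lie behind it is unknown. FGF19 (chromosome 11, 69513006 to 69519106), made in intestine and, in some liver cancers, in the tumour cells, stood at 50.9 TPM in LG and 27.1 TPM in HG, a ratio of 1.88. Its difference of 0.89 ranked 696th and missed the rule. FGF19 held 75.8% of the summed TPM of 22 FGF ligand genes in LG and 73.2% in HG, while FGF21 held 2.53% in LG and 0.27% in HG. Of the 20 other FGF ligands, 9 were listed at 0 in both libraries, 4 reached the level compared and 0 met the rule. By the mean of both libraries the most abundant of them were FGF5 (5.86 TPM in LG, 3.41 TPM in HG) and FGF11 (3.52 TPM in LG, 2.03 TPM in HG), although FGF12 (2.17 TPM in LG, 2.81 TPM in HG) stood above FGF11 in HG. FGF19 was matched most closely by FSTL3 (51.4 TPM in LG, 27.4 TPM in HG, distance 0.02), which encodes a follistatin-like activin antagonist, and by the integrin gene ITGA5 (51.5 TPM in LG, 27.5 TPM in HG, distance 0.03).

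None of the receptor genes for these hormones met the rule, and neither did most genes compared (3.65% were higher and 1.10% lower). FGFR4 stood at 486 TPM in LG and 415 TPM in HG, FGFR3 at 361 TPM in LG and 282 TPM in HG, and FGFR1 at 55.9 TPM in LG and 36.8 TPM in HG, a difference of 0.59. FGFR2 was scarce (2.46 TPM in LG, 2.35 TPM in HG). KLB stood at 112 TPM in LG and 147 TPM in HG, and the kidney co-receptor KL at 0.12 TPM in LG and 0.03 TPM in HG. Of 7 receptor and co-receptor genes, 6 reached the level compared and 0 met the rule (median difference 0.14). FGF19 is itself a target of the bile acid receptor FXR, encoded by NR1H4, which stood at 64.1 TPM in LG and 88.9 TPM in HG. Of 9 FXR and bile acid genes in the files, 5 reached the level compared. SLC51A, a subunit of a bile acid exporter, met the rule at 13.2 TPM in LG and 4.28 TPM in HG. SLC51B, its partner subunit, stood at 47.7 TPM in LG and 65.8 TPM in HG. The FXR target NR0B2 stood at 28.9 TPM in LG and 16.1 TPM in HG, a difference of 0.81, and CYP27A1, an enzyme of bile acid synthesis, at 97.3 TPM in LG and 85.7 TPM in HG. CYP7A1, the rate-limiting enzyme of bile acid synthesis that FGF19 represses, was listed at 0 TPM in both. The median of this list was 0.18, and -0.14 among genes with a mean of at least 10 TPM.

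The 4 activin beta chains differed from one another. INHBE (chromosome 12, 57849096 to 57851791), whose product activin E is released by liver, stood at 271 TPM in LG and 19.3 TPM in HG. This was a ratio of 14.1, and its difference of 3.75 was the 4th largest of all genes compared. INHBA (chromosome 7, 41728601 to 41742706), the chain of activin A, stood at 4.94 TPM in LG and 1.03 TPM in HG, with a difference of 1.55 that fell to 0.72 with a pseudocount of 5. INHBB (chromosome 2, 121103719 to 121109383) stood at 4.61 TPM in LG and 3.56 TPM in HG, a difference of 0.30. INHBC (chromosome 12, 57828468 to 57845845) stood at 1.58 TPM in LG and 2.62 TPM in HG, a difference of -0.49, and was the one member compared that was lower in LG. INHBE made up 96.1% of the summed TPM of the 4 chains in LG and 72.8% in HG, while INHBC made up 0.56% in LG and 9.89% in HG. The gene nearest to INHBE in level and difference was STC2 (distance 0.73). Next came DDIT4, a stress-induced inhibitor of growth signalling (191 TPM in LG, 30.4 TPM in HG, distance 0.80). Both distances are larger than those of FGF19 to its nearest genes (0.02 and 0.03). The nearest genes to INHBA were RASGEF1B (4.82 TPM in LG, 0.88 TPM in HG) and MYO18B (4.40 TPM in LG, 0.86 TPM in HG). Those nearest to INHBB were GSTO2 (4.67 TPM in LG, 3.52 TPM in HG) and GUSBP9 (4.53 TPM in LG, 3.51 TPM in HG), and those nearest to INHBC were LINC00864 (1.59 TPM in LG, 2.66 TPM in HG) and FLT3LG (1.61 TPM in LG, 2.65 TPM in HG).

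The gene intervals of INHBC and INHBE are separated by 3250 bases in hg19, and the beta chains are related in sequence, so their coding ends and the stretches they share with other genes were compared. The last 60 coding bases before the stop codon are shown for the 4 chains, from GENCODE release 29 transcripts on GRCh38, with capitals for the 29 bases that are the same in all 4. They code for the end of the mature growth factor domain.

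INHBA, chr7:41689653-41689712, minus strand: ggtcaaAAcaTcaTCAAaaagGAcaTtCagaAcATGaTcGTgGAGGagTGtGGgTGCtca
INHBB, chr2:120349812-120349871, plus strand: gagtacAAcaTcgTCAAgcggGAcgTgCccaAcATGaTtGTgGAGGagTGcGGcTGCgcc
INHBC, chr12:57449960-57450019, plus strand: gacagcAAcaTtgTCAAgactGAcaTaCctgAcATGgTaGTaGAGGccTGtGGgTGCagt
INHBE, chr12:57456786-57456845, plus strand: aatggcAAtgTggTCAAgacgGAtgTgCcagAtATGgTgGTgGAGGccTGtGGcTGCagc

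Of these 60 bases, INHBC and INHBE had 44 in common, the most of any pair, and INHBA and INHBE had 34, the fewest. Over the whole coding sequence, 58.1% of aligned bases were identical between INHBC and INHBE. None of the 2380 stretches of 50 bases in the longest INHBE coding transcript occurred in a transcript of another gene, and the same held for the longest coding transcripts of INHBA, INHBB, INHBC, GDF15, STC1, STC2, FGF19 and FGF21. ADM2 was the exception, with 21 of 4227 such stretches (0.50%) also found in other genes. INHBA overlaps the antisense gene INHBA-AS1, listed at 0.39 TPM in LG and 0.42 TPM in HG. Whether the libraries keep strand is not given in the sources used here, and without strand the reads of the overlap cannot be told apart.

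**Figure D2:**
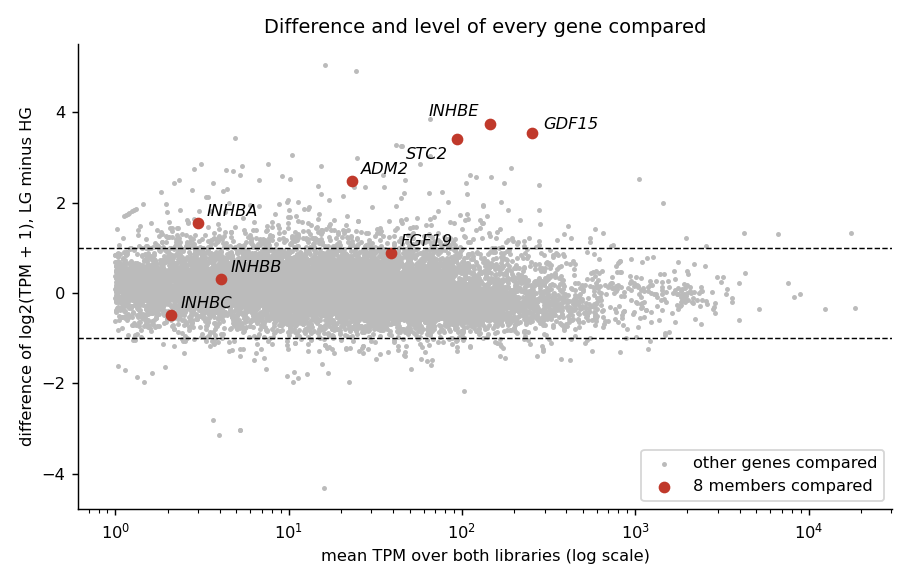
LG minus HG difference of log2(TPM + 1) against mean TPM (log axis) for each of the 13745 genes compared, with the 8 members compared in red; dashed lines mark the 2-fold rule. INHBE, GDF15 and STC2 stand near the top edge at differences of 3.75, 3.54 and 3.41, while FGF19, INHBB and INHBC lie within the band of other genes.

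None of the activin receptor genes met the rule, which 3.65% of all genes compared met as higher and 1.10% as lower. The type II receptor genes ACVR2A (25.9 TPM in LG, 23.5 TPM in HG) and ACVR2B (10.6 TPM in LG, 9.72 TPM in HG) were nearly level. So were the type I receptor genes ACVR1B (48.5 TPM in LG, 46.2 TPM in HG) and ACVR1C (4.20 TPM in LG, 4.93 TPM in HG), of which ACVR1C encodes ALK7, a receptor for activin E. ACVR1, a type I receptor used mainly by bone morphogenetic proteins, stood at 53.5 TPM in LG and 27.1 TPM in HG, a difference of 0.96. TGFBR2 was the most abundant receptor of the family by the mean of both libraries (46.4 TPM in LG, 67.2 TPM in HG), although ACVR1 and ACVR1B stood above it in LG. Of 13 receptor genes, 10 reached the level compared and 0 met the rule, with a median difference of -0.15.

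FST, the secreted trap for activins, stood at 107 TPM in LG and 113 TPM in HG, and its relative FSTL3 at 51.4 TPM in LG and 27.4 TPM in HG. In LG the transcript level of INHBE was therefore above that of FST, and in HG it was below it. Protein amounts were not measured, and binding between the products of these genes was not tested. BAMBI, a decoy receptor, was the most abundant of 10 antagonists and modulators (352 TPM in LG, 383 TPM in HG). Of these 10 genes, 7 reached the level compared and 0 met the rule. Their median difference was 0.38, but 0.25 with a pseudocount of 5, 0.19 among genes with a mean of at least 10 TPM and 0 without a filter on level. Among 8 SMAD genes, the signal carriers of the family, 1 met the rule: SMAD6, an inhibitory SMAD of the bone morphogenetic protein branch, was lower at 34.5 TPM in LG and 87.2 TPM in HG (difference -1.31). SMAD7, the inhibitory SMAD of the activin and TGF-beta branch, stood at 69.9 TPM in LG and 53.6 TPM in HG. SMAD3 stood at 44.9 TPM in LG and 28.0 TPM in HG, and SMAD2 at 13.0 TPM in LG and 13.9 TPM in HG. FURIN, a protease that cuts activin and GDF15 precursors, stood at 424 TPM in LG and 464 TPM in HG, and MBTPS1, another convertase, at 93.1 TPM in LG and 83.0 TPM in HG. None of 7 processing enzymes at the level compared met the rule (median difference 0.43).

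**Figure D3:**
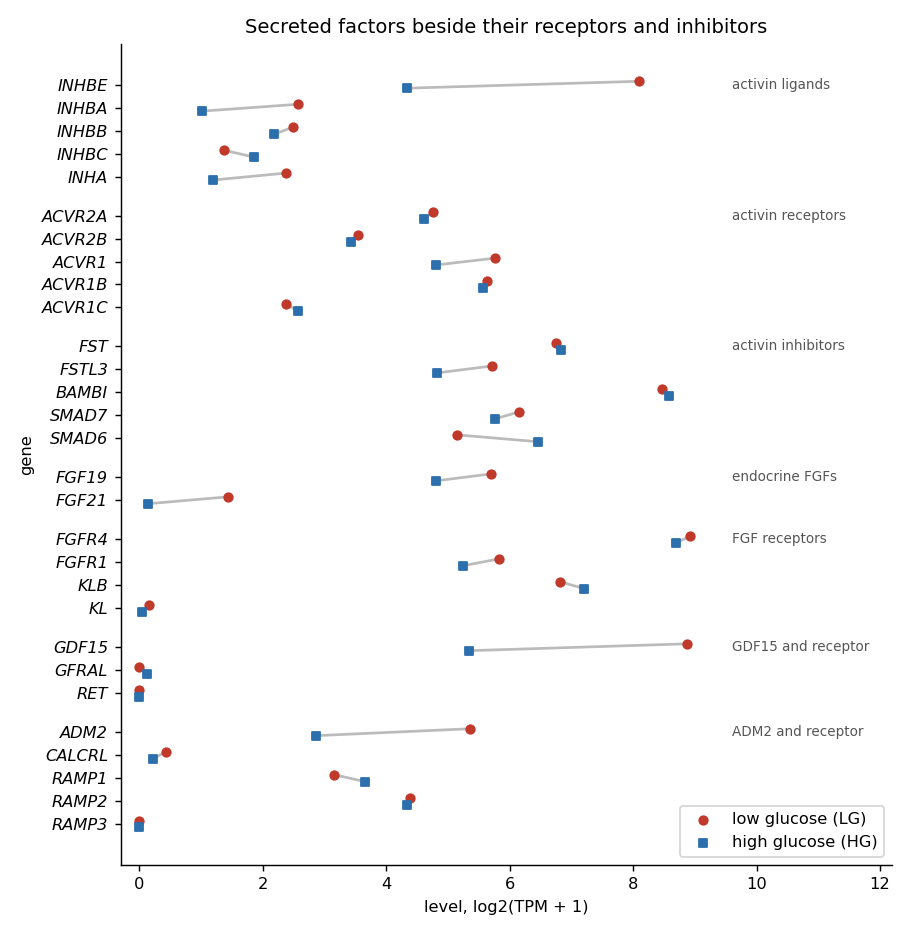
Level as log2(TPM + 1) of members, their receptors and their inhibitors, with a red circle for low glucose and a blue square for high glucose (1 library each). The gaps of INHBE and GDF15 are wide, while ACVR2A, ACVR2B, FST, FGFR4 and KLB differ by less than 0.4 on this scale. Other receptors and inhibitors drawn differ more, with SMAD6 at -1.31, ACVR1 at 0.96, FSTL3 at 0.88 and FGFR1 at 0.59 (LG minus HG). GFRAL, RET and CALCRL lie near 0.

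Other ligands of the TGF-beta family gave a scale for GDF15 and INHBE. Of 28 such genes, 13 reached the level compared, 2 were at least 2-fold higher and 0 lower. Their median difference was 0.54, but 0.26 with a pseudocount of 5, 0.88 among genes with a mean of at least 10 TPM and 0.03 without a filter on level. The 2 were TGFB2 (32.2 TPM in LG, 10.7 TPM in HG) and INHA (4.17 TPM in LG, 1.29 TPM in HG), the alpha chain that turns beta chains into inhibins. BMP2 was the most abundant (300.3 TPM in LG, 163 TPM in HG), followed by TGFB1 (45.1 TPM in LG, 57.3 TPM in HG). GDF15 and the 4 beta chains were added to these 28 for a sum over 33 genes. GDF15 held 38.8% of that sum in LG and 11.1% in HG, INHBE 22.4% in LG and 5.39% in HG, and BMP2 24.8% in LG and 45.6% in HG. BMP2 was thus the most abundant of the 33 in HG, and GDF15 in LG.

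Other hormones and regulators released by liver were searched under 22 symbols, some of them alternative names of the same gene. The search found 19 genes, 16 of them at the level compared. Of these, 2 were at least 2-fold higher and 0 lower, with a median difference of 0.49. One of them was IGFBP1, an insulin-like growth factor binding protein, at 4.29 TPM in LG and 1.32 TPM in HG. The abundant plasma proteins AHSG (1682 TPM in LG, 1250 TPM in HG) and RBP4 (1396 TPM in LG, 1541 TPM in HG) were within 2-fold. So was HAMP, the iron hormone hepcidin (317 TPM in LG, 307 TPM in HG).

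Of 19 transcription factors of stress and metabolism, all at the level compared, 11 had a difference above 0 and 8 below it (median 0.46). At least 2-fold higher were 3 (beside 3.65% of all genes compared), and 0 were lower (beside 1.10%). ATF3 stood at 82.7 TPM in LG and 7.79 TPM in HG, DDIT3 (CHOP) at 208 TPM in LG and 34.1 TPM in HG, and CEBPB, a partner of ATF4, at 283 TPM in LG and 133 TPM in HG. ATF4 itself, which is controlled largely at translation, stood at 904 TPM in LG and 658 TPM in HG. ATF5 had the lowest difference of the list, -0.67 (27.5 TPM in LG, 44.2 TPM in HG). XBP1 was the most abundant of the list (1053 TPM in LG, 812 TPM in HG). PPARA, the fasting receptor that drives FGF21 in liver, stood at 12.0 TPM in LG and 12.9 TPM in HG. These are transcript levels and do not measure the activity of the factors.

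Promoter sequence was read for the members that had a window in RefSeq (GRCh38.p14), 7 of the 10: GDF15, FGF21, STC2, ADM2, INHBA, INHBB and INHBC. A window holds 300 bases, 250 before the gene start and the rest after it. Motifs were searched on both strands. The first was TGATGNAA, the core of the element bound by ATF4 with C/EBP partners. The core of the cAMP response element was searched as TGACGT. The E-box was searched as CACGTG, which always contains the hypoxia response core, itself searched as ACGTG. The TATA box was searched as TATAAA. The 250 bases before the start are shown for FGF21, which held the match to the ATF4 element, and for GDF15, STC2 and ADM2, whose levels differed most among the genes with a window. Capitals mark a match to any of the motifs.

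FGF21 promoter, chr19:48755274-48755523, plus strand: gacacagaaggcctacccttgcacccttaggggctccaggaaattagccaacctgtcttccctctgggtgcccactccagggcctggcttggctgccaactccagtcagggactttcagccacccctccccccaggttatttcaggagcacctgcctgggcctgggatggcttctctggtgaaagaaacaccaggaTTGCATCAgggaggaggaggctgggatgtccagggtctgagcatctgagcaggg
GDF15 promoter, chr19:18385908-18386157, plus strand: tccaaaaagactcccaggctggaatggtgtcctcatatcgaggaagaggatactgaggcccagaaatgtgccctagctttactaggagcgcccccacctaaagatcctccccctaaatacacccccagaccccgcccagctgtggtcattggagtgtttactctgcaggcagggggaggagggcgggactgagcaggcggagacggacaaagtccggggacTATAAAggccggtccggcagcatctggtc
STC2 promoter, chr5:173328415-173328664, minus strand: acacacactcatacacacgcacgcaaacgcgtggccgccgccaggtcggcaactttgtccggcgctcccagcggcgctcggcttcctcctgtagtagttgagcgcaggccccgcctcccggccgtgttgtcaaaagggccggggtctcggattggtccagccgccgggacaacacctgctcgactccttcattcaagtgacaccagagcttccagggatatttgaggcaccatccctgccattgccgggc
ADM2 promoter, chr22:50481293-50481542, plus strand: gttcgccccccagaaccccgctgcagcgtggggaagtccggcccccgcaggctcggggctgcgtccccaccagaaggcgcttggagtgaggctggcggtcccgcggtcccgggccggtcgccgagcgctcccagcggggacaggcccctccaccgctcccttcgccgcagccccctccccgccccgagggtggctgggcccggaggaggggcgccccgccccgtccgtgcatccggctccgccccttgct

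FGF21 carried TTGCATCA, the reverse complement of a TGATGNAA match, 54 to 47 bases before its start. It was 1 of 7 members with this motif, which 3.62% of all 35116 RefSeq windows hold. GDF15 carried TATAAA 29 to 24 bases before its start and INHBA 11 to 6 bases before its start, a motif in 11.5% of windows. INHBC carried ACGTG 172 to 168 bases before its start, a motif in 21.4% of windows. TGACGT (7.98% of windows) and CACGTG (7.26%) had 0 matches in the 7 members. GC content of the 250 bases ran from 42.8% in INHBA to 89.6% in INHBB, with STC2 at 63.6%, ADM2 at 78.8% and GDF15 at 58.4%. The median GC content over all windows was 58%. The FGF21 stretch held 0 CG pairs and the ADM2 stretch 29, against a median of 11. A window without a match says only that these letters are not in it, since elements may lie elsewhere.

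The chromosomal neighbours of the members were read from the files' hg19 intervals. INHBE and INHBC, 3250 bases apart, had differences of 3.75 and -0.49. That of INHBC was short of the rule and rests on low levels (1.58 TPM in LG, 2.62 TPM in HG). On the other side of INHBE, 2126 bases away, GLI1 stood at 2.95 TPM in LG and 1.26 TPM in HG. FUT1, a fucosyltransferase gene, has an interval 696 bases away from that of FGF21. It stood at 10.1 TPM in LG and 0.60 TPM in HG, a difference of 2.80. BCAT2, on the other side of FGF21, stood at 28.9 TPM in LG and 38.8 TPM in HG. The neighbours of GDF15 were PGPEP1 (35.9 TPM in LG, 34.4 TPM in HG) and LRRC25 (0.37 TPM in LG, listed at 0 TPM in HG). ADM2 lay between SBF1 (96.3 TPM in LG, 77.4 TPM in HG) and MIOX (0.07 TPM in LG, 0.12 TPM in HG). FGF19 lay between ORAOV1 (42.9 TPM in LG, 28.7 TPM in HG) and FGF4, listed at 0 TPM in both. INHBB lay next to RALB (47.5 TPM in LG, 74.7 TPM in HG). R3HDM2, on the far side of INHBC from INHBE, stood at 53.6 TPM in LG and 34.3 TPM in HG. The entries on both sides of STC2 were listed at 0 in both libraries. Of the nearest entries to STC1 and INHBA, only ADAM28, near STC1, reached the level compared (4.92 TPM in LG, 3.13 TPM in HG).

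**Figure D4:**
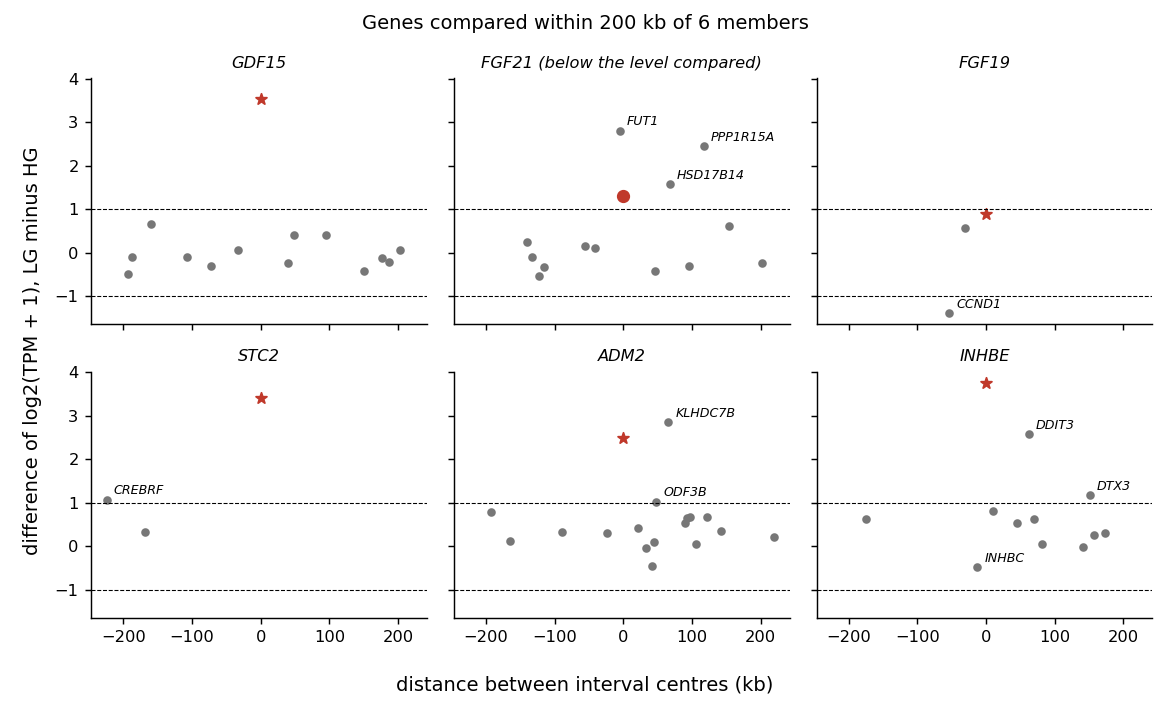
LG minus HG difference of log2(TPM + 1) for genes compared whose intervals lie within 200 kb of 6 members, against the distance between interval centres in kb; the member is red (a circle for FGF21, which is below the level compared) and dashed lines mark the 2-fold rule. FUT1, HSD17B14 and PPP1R15A near FGF21, KLHDC7B and ODF3B near ADM2, and DDIT3 and DTX3 near INHBE lie above the upper line, and CCND1 near FGF19 lies below the lower one.

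The differences of the members were recomputed under 4 scalings, 2 pseudocounts and 2 filters on level. Over these choices the difference of INHBE ran from 3.51 to 3.81, that of GDF15 from 3.41 to 3.57 and that of STC2 from 3.12 to 3.48. FGF19 stayed short of the rule throughout, between 0.80 and 0.91.

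**Figure D5:**
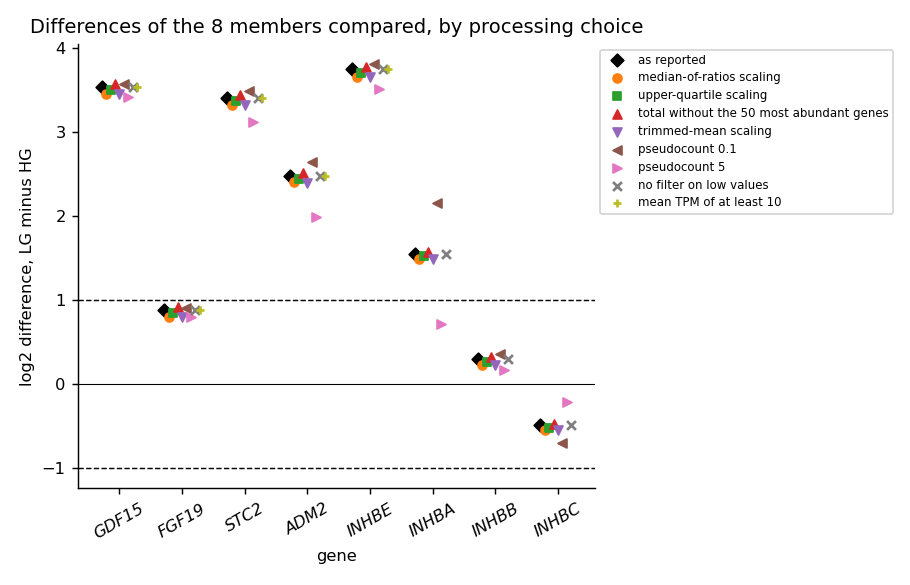
Log2 difference, low minus high glucose, of the 8 members compared (x axis) as reported and under each scaling, pseudocount and filter tried, 1 marker per choice; dashed lines mark the 2-fold rule. GDF15, STC2, ADM2 and INHBE stay above the line throughout, INHBA falls to 0.72 with a pseudocount of 5, and FGF19 stays just below the line.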

How the data were processed

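RNA of Huh7 cells was sequenced, 1 library per medium, and grouped by the treatment label. The deposited values are TPM per gene, per the file headers. The submitters' processing notes name cutadapt, RSEM 1.2.21 (which divides reads that map to several genes) and hg19. Aligner, annotation and strandedness were not given in the sources used here. Depth is unknown, so no counting interval is given. TPM has a fixed total, so values of one gene depend on the abundance of the rest.

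Differences of log2(TPM + 1), LG minus HG, were computed with Python 3.11.15, numpy 2.4.6 and pandas 2.3.3, and coding sequences were aligned with Biopython 1.88. The procedure was tested on simulated data, with changes of known size and an assumed noise. That simulation held no gene as low as INHBA, INHBB or INHBC, so it does not bear on them, and the real noise is unknown. With 1 library per medium there is no test. The members, the 15 gene lists and the alternatives (4 scalings, 2 pseudocounts, 2 filters, 2 thresholds, a shorter promoter window) were chosen with earlier results of these data known. Named genes were the members, their direct receptors, every list gene past the 2-fold rule, the 2 most abundant of each list, the 2 genes most alike each member and the nearest entries on the chromosome; the others named were chosen after their values were seen. Some genes under this rule are not reported here. A planned protein comparison was not run, and coding sequences were compared instead, a choice made after the data were seen. Promoters are from RefSeq.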

Additional observations from a re-analysis of the deposited data

How the results depend on the processing

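The 5 members at least 2-fold higher in LG numbered 5 under each of the 4 scalings and with a pseudocount of 0.1, 4 with a pseudocount of 5, with a minimum mean of 10 TPM and at a 3-fold threshold, and 6 without a filter and at a 1.5-fold threshold; 0 were lower under any of these. INHBA missed the rule with a pseudocount of 5 (0.72). Over the scalings, pseudocounts and filters the differences ran from 3.41 to 3.57 for GDF15, 3.51 to 3.81 for INHBE, 3.12 to 3.48 for STC2, 1.99 to 2.64 for ADM2, 0.80 to 0.91 for FGF19, 0.17 to 0.36 for INHBB and -0.70 to -0.21 for INHBC. Over all genes, the count at least 2-fold higher was 234 with a pseudocount of 5, 293 with a minimum mean of 10 TPM, 1786 at 1.5-fold and 119 at 3-fold; the count lower was 79 with a pseudocount of 5, 835 at 1.5-fold and 22 at 3-fold. Under the 4 scalings, the median over all genes lay between -0.03 and 0.08. Many other list medians moved by over 1.5 times, and not all are given here. Without a filter, stanniocalcin partners stood at 0.24, processing enzymes at 0.07, FXR and bile acid genes at 0.04 and FGF ligands at 0. With median-of-ratios scaling, FGF receptors stood at 0.06, stanniocalcin partners at 0.01, the calcitonin family at 0.03 and SMAD genes at -0.13 (-0.05 as reported). FGF ligands, 0.60 as reported, fell to 0.24 with a pseudocount of 5. Markers of other liver cells, 0.11 as reported, rose to 0.42 with a minimum mean of 10 TPM. A scaling applies the same factor to all genes of a library, so its moves are not particular to these lists. The median over all genes was 0.05 as reported and -0.03 with median-of-ratios scaling. The cause of the other moves was not tested. The shorter promoter window changed no match. Leaving out a replicate could not be tried. No paired analysis was possible because each medium has 1 library. Unknown depth limits what can be read from FGF21, STC1, INHBA and INHBC.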

Other observations

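Several genes within 200 kb of a member differed as well; this window was chosen after the data were seen. Of 64 genes compared whose intervals lie in it, members left out, 9 were at least 2-fold higher in LG (14.1%, beside 3.65% of all genes compared) and 1 was lower. Neighbouring genes are not independent, and the difference between these shares was not tested. Near FGF21 these were FUT1, HSD17B14, a dehydrogenase gene (18.2 TPM in LG, 5.49 TPM in HG), and PPP1R15A. Near INHBE and INHBC lay DDIT3 and DTX3 (20.9 TPM in LG, 8.72 TPM in HG), and NDUFA4L2 (2.49 TPM in LG, 0.74 TPM in HG) lay near INHBC. Near ADM2 were KLHDC7B (14.1 TPM in LG, 1.09 TPM in HG) and ODF3B (8.70 TPM in LG, 3.78 TPM in HG). CREBRF, a regulator of the unfolded protein response, lay near STC2 (14.2 TPM in LG, 6.22 TPM in HG). The 1 lower gene was CCND1 (cyclin D1), near FGF19, at 91.3 TPM in LG and 240.9 TPM in HG.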
